A study of Homo sapiens with 6 samples.

Results

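The genes described here were 48 genes that carry newly made proteins from the endoplasmic reticulum (ER) to the Golgi apparatus, taken by gene symbol from the table of 21151 genes deposited for this study. All 48 symbols were found, and all 48 were among the 16353 genes that had enough reads to be tested. They comprised 12 genes of the COPII coat and its GTPase, 4 COPII helpers for large cargo, 10 cargo and retrieval receptors, 8 genes of the COPI coat and its ARF GTPases, 10 genes of the translocon and signal peptidase, a tether and a SNARE, and 2 transcription factors of the CREB3 type. Their mRNA was measured by RNA sequencing in CCD-1064Sk, a line of human skin fibroblasts. In 3 libraries (shControl) the cells carried a control short-hairpin RNA and are labelled wild type, and in the other 3 (shZNF469) they carried short-hairpin RNA against the zinc-finger gene ZNF469 and are labelled as its knockdown. The study asked what ZNF469 does for the making of extracellular matrix. Both groups were cultured in the same medium with serum. The labels call the libraries of a group technical replicates, so each p-value below measures only the spread between these libraries. The labels give neither the hairpin sequences nor the number of hairpins used.

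Proteins bound for the cell surface or the outside enter the ER through the SEC61 translocon, where the signal peptidase complex removes their leading peptide. Vesicles with a COPII coat then take them towards the Golgi, and vesicles with a COPI coat bring back receptors and escaped ER proteins. Fibroblasts send out large amounts of procollagen, a rod too long for an ordinary COPII vesicle, and loss of several COPII genes or of the transcription factor CREB3L1 is known to disturb collagen export in skeletal tissues.

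The labels held for the targeted gene. ZNF469 was at 39.7, 46.2 and 39.9 CPM in shControl and at 21.4, 18.3 and 18.5 CPM in shZNF469. CPM are read counts made comparable between libraries by their totals and a TMM scaling factor. The log2 fold change of ZNF469 (shZNF469 minus shControl throughout) was -1.12 (SE 0.092, edgeR adjusted p = 0.000873). Total counts were 35417366 to 48298264 per library. All 10 fibroblast markers had a mean over the 6 libraries of 1 TPM (a transcript level scaled by length) or more, and their sum was 31167 to 33579 TPM in shControl and 24224 to 25660 TPM in shZNF469, where the sum includes 3 collagens that fell. Of markers of other cells, 1 of 6 for keratinocytes (KRT10), none of 5 for endothelium, 1 of 4 for melanocytes (PMEL), 2 of 5 for immune cells (CD68 and CD14) and 3 of 4 for smooth muscle and pericytes (DES, RGS5 and CNN1) had such a mean. The endothelial marker TEK was at 1.04 ± 0.202 TPM in shControl and 0.574 ± 0.503 TPM in shZNF469 (SD, n = 3), and CD14 ran from 0.723 to 1.76 TPM over the 6 libraries. KRT5 and KRT14 of keratinocytes, MLANA and TYR of melanocytes and PTPRC of immune cells had no value to analyse here. The sums of the immune markers were 172 to 195 TPM in shControl and 204 to 245 TPM in shZNF469, and those of the melanocyte markers 15.1 to 15.6 TPM and 27.8 to 32.2 TPM. A list of mitochondrial and nuclear RNAs read as a sign of RNA quality summed to 56350 to 59864 TPM in shControl and 65314 to 70335 TPM in shZNF469, with 3 of its 9 genes higher. The 6 proliferation genes fell, their sum going from 125 ± 5.12 to 57.4 ± 4.65 TPM (SD, n = 3). The part of these differences in the results below was not tested.

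The genes of the ER to Golgi route were mostly lower in shZNF469, by small amounts. At an adjusted p under 0.05, 11 of the 48 fell (22.9%), KLHL12 alone rose, and 36 did not pass. The genes that fell were KDELR3, KDELR2 and SURF4 among the receptors, ARF4, COPB2 and COPA of the COPI machinery, SEC24D, SEC23B and TFG of the COPII machinery, SEC61A1 of the translocon and the SNARE GOSR2. Their falls were 1.13-fold to 1.36-fold. Across all tested genes 5.34% fell and 4.56% rose. The mean CPM of each of the 48 was 10 or higher, and among the 9493 tested genes at that level 7.02% fell and 6.47% rose. The median log2 fold change of the 48 was -0.13, against 0.0039 over all tested genes. Of the 48 values 38 were negative (79.2%), against 49.3% of all tested genes and 50.3% of those at 10 CPM or more. In 21 of the 48 every shZNF469 library was below every shControl library, and in 2, KLHL12 and SPCS3, every one was above. Over all tested genes, 15.7% were separated in the lower direction and 15.6% in the higher. Among the 9493 genes with a mean of 10 CPM or more, 1748 (18.4%) were separated in the lower direction and 1754 in the higher. The lists were chosen with earlier results of these data known, so these counts describe them and are not independent evidence. In bulk RNA, fewer cells with high levels and less RNA in each cell cannot be told apart.

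**Figure D1:**
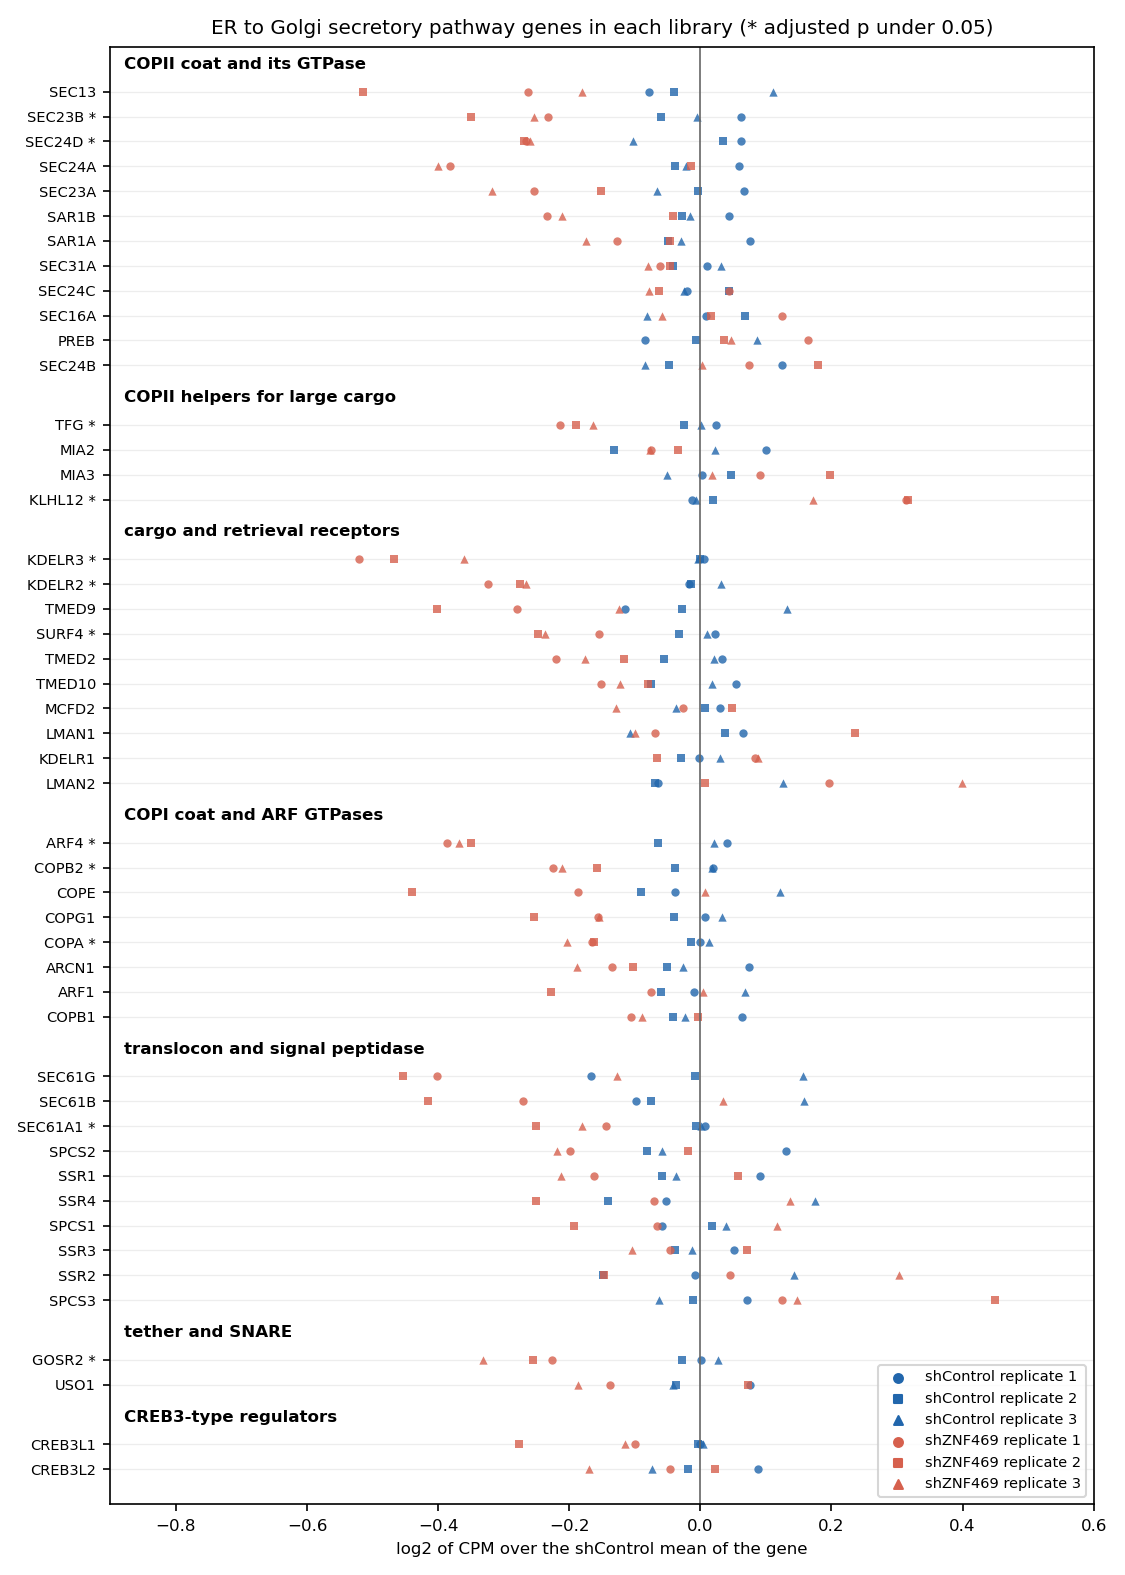
Each of the 48 genes in each library, as the log2 of its CPM over the mean of the 3 shControl libraries (blue, shControl; red, shZNF469; circle, square and triangle, replicates 1, 2 and 3), with an asterisk where the adjusted p was under 0.05. KDELR3 and ARF4 have the lowest log2 fold changes (-0.45 and -0.37) and no overlap between the groups. Single points of other genes, such as SEC13, lie farther to the left than those of ARF4. KLHL12 is the single gene with an asterisk to the right.

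The separation of libraries and the test did not always go together. Of the 21 genes whose shZNF469 libraries were all lower, 11 passed, and the other 10 (SEC23A, SEC31A, SEC13, SAR1B, TMED2, TMED9, TMED10, COPG1, ARCN1 and CREB3L1) did not. In all, 23 of the 48 had an unadjusted p under 0.05. The share of all tested genes past that limit was not worked out, so this count is a description only. Depth was not short for this group: the lowest count of any of the 48 in any library was 555 (MIA2) and the highest 25899 (SEC61A1). The SE of a log2 fold change ran from 0.041 (SEC31A) to 0.124 (SEC61B), with a median of 0.062. The genes with a SE over 0.1 were SEC24A, LMAN2, COPE, SEC61B, SEC61G, SSR2 and SSR4.

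The abundance of the parts differed widely along the route. On the authors' TPM scale, which allows for transcript length, the highest in shControl were the small GTPases ARF1 (619 ± 14.6 TPM; SD, n = 3 here and below) and ARF4 (590 ± 33.5 TPM). ARF1 was above ARF4 in each shControl library, by little in the first (635, 608 and 614 against 628, 578 and 564 TPM). Both lay above SSR2 (410 ± 30.5 TPM), the beta subunit of the complex that accompanies the translocon. The transcription factor CREB3L1 (256 ± 11.0 TPM) stood among the abundant members, whereas CREB3L2 was at 31.5 ± 3.07 TPM. The lowest were SEC23B (23.4 ± 1.67 TPM), SAR1B (21.6 ± 0.534 TPM) and MIA2 (10.3 ± 0.976 TPM), a helper of procollagen loading. The 48 genes summed to 8027 ± 310 TPM in shControl and 7219 ± 237 TPM in shZNF469, a difference of -10.1%, with no overlap (7764 to 8368 against 6991 to 7465 TPM). By role, the differences in summed TPM were -14.1% for COPI and ARF, -10.5% for the COPII coat, -9.07% for the receptors and -5.63% for the translocon and signal peptidase. The cargo list (COL1A1, COL1A2, COL3A1, COL5A1, COL6A1, FN1 and SPARC) went from 25450 ± 1566 to 13079 ± 860 TPM, a difference of -48.6%, with 5 of its 7 genes lower and FN1 higher, the latter a call lost in 4 of the 6 fits that each left out 1 library.

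Promoter sequence is shown because 1 short motif recurred among these genes. The unfolded protein response element (UPRE), here its core TGACGTGG, is bound by XBP1 and by ATF6-type factors when the ER needs more capacity. RefSeq promoter windows on GRCh38.p14, from 250 bases before to 50 bases after a gene start, were at hand for 41 of the 48 genes (not for SEC24D, MIA2, TMED9, KDELR2, ARF4, SPCS1 and USO1). The UPRE core, read on both strands, stood in a window of 10 of the 41 (24.4%): SEC23A, SEC24A and SEC16A of COPII, KDELR3 among the receptors, COPA, COPB1, COPB2 and ARF1 of COPI, and SSR3 and SSR4 of the translocon. Of windows of the same length it stood in those of 1.24% of 11251 tested genes and of 0.927% of 27305 genes in all. The cyclic AMP response element (CRE) TGACGTCA was in 1 of the 41, CREB3L2 (2.44%), against 3.78% of the tested genes. The ER stress response element (ERSE), CCAAT and CCACG with 9 bases between them, was in none of the 41 and in 0.0916% of all genes, and ERSE-II, ATTGG and CCACG with 1 base between them, was also in none and in 0.0696% of all genes. The CRE and the UPRE core share the letters TGACGT, and ERSE and ERSE-II share CCACG. Stretches with the UPRE core are given for 3 genes that fell (KDELR3, COPB2 and COPA) and for 4 that did not pass (COPB1, ARF1, SEC23A and SEC24A), followed by the CRE of CREB3L2. Each is written 5′ to 3′ on the strand of its gene, with the motif in capitals; CCACGTCA is the core read from the other strand.
KDELR3, chr22:38468038-38468069, plus strand: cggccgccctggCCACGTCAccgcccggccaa
COPB2, chr3:139389824-139389855, minus strand: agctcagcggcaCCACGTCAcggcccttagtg
COPA, chr1:160343238-160343257, minus strand: ggagagggtcgcTGACGTGG
COPB1, chr11:14499840-14499871, minus strand: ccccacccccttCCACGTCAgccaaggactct
ARF1, chr1:228082680-228082707, plus strand: gcccggaggcgcTGACGTGGccgccgtc
SEC23A, chr14:39103232-39103251, minus strand: gtcccctcctctTGACGTGG
SEC24A, chr5:134648594-134648625, plus strand: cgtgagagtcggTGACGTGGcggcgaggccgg
CREB3L2, chr7:138002246-138002277, minus strand: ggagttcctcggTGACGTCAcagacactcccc
Of the 10 genes with the UPRE core, 3 fell (KDELR3, COPA and COPB2), and their median log2 fold change was -0.14. Of the 31 with a window and no core, 5 fell and 1 rose, with a median of -0.12. Of the 7 without a window, 3 fell (SEC24D, KDELR2 and ARF4), with a median of -0.26. A match of letters is a description and shows no binding.

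At the entrance to the ER, 1 of the 10 genes of the translocon and signal peptidase fell, none rose, and the median log2 fold change was -0.08. This share of 10% was near that of tested genes with a mean of 10 CPM or more (7.02% lower). All knockdown libraries were below all controls in 1 of the 10 and above them in 1, against 15.7% and 15.6% of all tested genes. The gene that fell was SEC61A1 (ENSG00000058262, chromosome 3, 128051641 to 128071683 on GRCh38.p14, plus strand), which encodes the channel itself. It was at 554.9, 549.6 and 552.6 CPM in shControl and at 500.1, 464.1 and 487.1 CPM in shZNF469. Each knockdown library was below each control, and the controls were close together. The fall was 1.14-fold (log2 fold change -0.19, SE 0.044, edgeR adjusted p = 0.0376). The other channel subunits, SEC61B and SEC61G, had log2 fold changes of -0.21 and -0.32 with larger errors (SE 0.12 and 0.11, edgeR adjusted p = 0.381 and 0.131), and their libraries overlapped. The 4 subunits of the translocon-associated protein complex, SSR1 to SSR4, lay between -0.10 and 0.08, and none passed. Of the signal peptidase subunits, SPCS1 and SPCS2 were at -0.04 and -0.14. SPCS3 was at 281.6 ± 13.2 CPM in shControl and 334.5 ± 43.3 CPM in shZNF469, with every knockdown library above every control, but it did not pass (log2 fold change 0.25, SE 0.093, edgeR adjusted p = 0.151).

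Of the 12 genes of the COPII coat, SEC24D and SEC23B fell (16.7%) and none rose (median log2 fold change -0.14). In 6 (50%) all shZNF469 libraries were below all controls. Among tested genes with a mean of 10 CPM or more, 7.02% fell and 18.4% were separated in the lower direction. SEC23 and SEC24 form the inner layer of the coat, and SEC24 picks the cargo. SEC24D (ENSG00000150961, chromosome 4, 118722823 to 118836126, minus strand), a SEC24 form whose mutation in people gives brittle bones, was at 204.6, 200.6 and 182.5 CPM in shControl and at 162.8, 162.6 and 163.6 CPM in shZNF469. The groups did not overlap, and the third control lay nearest to the knockdown libraries. The fall was 1.20-fold (log2 fold change -0.27, SE 0.057, edgeR adjusted p = 0.0305). SEC23B (ENSG00000101310, chromosome 20, 18507548 to 18561415, plus strand), the scarcer of the 2 SEC23 forms, was at 34.0, 31.2 and 32.4 CPM in shControl and at 27.7, 25.5 and 27.3 CPM in shZNF469. All knockdown libraries were lower. The fall was 1.21-fold (log2 fold change -0.28, SE 0.062, edgeR adjusted p = 0.0335).

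SEC23A, the main SEC23 form here by TPM (156 ± 13.7 TPM), missed the threshold. Its log2 fold change of -0.24 (SE 0.062) had an edgeR adjusted p of 0.0546, and its libraries did not overlap. The outer-coat genes were unlike in size and precision: SEC13 was at -0.31 (SE 0.096, edgeR adjusted p = 0.0898) and SEC31A, its partner, at -0.06 (SE 0.041, edgeR adjusted p = 0.433). The GTPases that start the coat, SAR1A and SAR1B, were at -0.12 and -0.16. The other SEC24 forms were at -0.25 (SEC24A), 0.09 (SEC24B) and -0.03 (SEC24C). SEC16A, which marks ER exit sites, and PREB, which loads SAR1 with GTP, were at 0.03 and 0.08. None of these passed.

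The 4 COPII helpers for large cargo did not move as one. KLHL12 (ENSG00000117153, chromosome 1, 202891120 to 202928599, minus strand), the adaptor with which the CUL3 ligase marks SEC31 so that larger coats can form around procollagen, was at 42.1, 43.0 and 42.3 CPM in shControl and at 52.7, 52.9 and 47.8 CPM in shZNF469. Every knockdown library was above every control, the third least so. The rise was 1.20-fold (log2 fold change 0.27, SE 0.057, edgeR adjusted p = 0.0287). TFG (ENSG00000114354, chromosome 3, 100709290 to 100748967, plus strand), which gathers COPII carriers at exit sites, was at 147.1, 142.1 and 144.6 CPM in shControl and at 124.6, 126.8 and 129.1 CPM in shZNF469. All knockdown libraries were lower, and TFG fell 1.14-fold (log2 fold change -0.19, SE 0.047, edgeR adjusted p = 0.0480). It kept its call in 2 of 13 other fits. MIA3 and MIA2, which join procollagen to the coat, were at 0.10 and -0.06 and did not pass.

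Among the 10 cargo and retrieval receptors, KDELR3, KDELR2 and SURF4 fell (30%), and none rose (median log2 fold change -0.14). In 6 of the 10 (60%) all knockdown libraries were lower. Of tested genes with a mean of 10 CPM or more, 7.02% fell and 18.4% were separated in the lower direction. The KDEL receptors bind ER chaperones that have reached the Golgi and return them in COPI vesicles. KDELR3 (ENSG00000100196, chromosome 22, 38468096 to 38483447, plus strand) was at 91.8, 91.4 and 91.2 CPM in shControl and at 63.8, 66.2 and 71.2 CPM in shZNF469. The controls were within 1 CPM of each other, and all knockdown libraries lay far below them. The fall of 1.36-fold was the largest of the 48 genes (log2 fold change -0.45, SE 0.058, edgeR adjusted p = 0.00453). KDELR2 (ENSG00000136240, chromosome 7, 6461089 to 6484152, minus strand) was at 368.3, 369.0 and 380.7 CPM in shControl and at 297.8, 307.8 and 310.0 CPM in shZNF469. Here too the groups were well apart. The fall was 1.22-fold (log2 fold change -0.29, SE 0.044, edgeR adjusted p = 0.00881).

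KDELR1, the most abundant KDEL receptor by TPM (360 ± 11.3 TPM), did not pass: 239.6 ± 4.94 CPM in shControl and 245.8 ± 14.6 CPM in shZNF469 (log2 fold change 0.04, SE 0.057, edgeR adjusted p = 0.769). SURF4 (ENSG00000148248, chromosome 9, 133361464 to 133377949, minus strand), a cargo receptor for many soluble secreted proteins, was at 350.2, 337.3 and 347.3 CPM in shControl and at 310.0, 290.7 and 292.8 CPM in shZNF469. All knockdown libraries were lower, and SURF4 fell 1.16-fold (log2 fold change -0.21, SE 0.047, edgeR adjusted p = 0.0343). The p24 proteins TMED2, TMED9 and TMED10, which link cargo to both coats, had all knockdown libraries below all controls at -0.17, -0.26 and -0.12, and none passed. The glycoprotein receptor LMAN1 and its partner MCFD2 were at 0.03 and -0.03, and LMAN2 was at 0.21. None of these 3 passed, and their libraries overlapped.

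The COPI coat and its ARF GTPases were all on the lower side, with the 8 log2 fold changes between -0.37 and -0.07 (median -0.18). ARF4, COPB2 and COPA fell (37.5%), and 5 of the 8 (62.5%) had all knockdown libraries below all controls. For tested genes with a mean of 10 CPM or more, these shares were 7.02% and 18.4%. ARF4 (ENSG00000168374, chromosome 3, 57571363 to 57597344, minus strand), a GTPase of the early Golgi, was at 409.0, 380.2 and 403.4 CPM in shControl and at 304.0, 311.9 and 308.0 CPM in shZNF469. The knockdown libraries were close together and far below the controls. The fall was 1.29-fold (log2 fold change -0.37, SE 0.047, edgeR adjusted p = 0.00438). COPB2 (ENSG00000184432, chromosome 3, 139357406 to 139389680, minus strand), the beta-prime subunit that reads retrieval signals, was at 311.9, 299.5 and 311.4 CPM in shControl and at 263.3, 275.7 and 265.6 CPM in shZNF469. The groups did not overlap, and the fall was 1.15-fold (log2 fold change -0.20, SE 0.046, edgeR adjusted p = 0.0380).

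COPA (ENSG00000122218, chromosome 1, 160288594 to 160343250, minus strand), the alpha subunit of the same outer layer of the coat, was at 340.3, 337.1 and 343.6 CPM in shControl and at 303.6, 304.2 and 295.5 CPM in shZNF469. Each knockdown library was below each control. COPA fell 1.13-fold, the smallest fall that passed (log2 fold change -0.18, SE 0.042, edgeR adjusted p = 0.0412). The subunits COPG1 and ARCN1 were separated in the same direction, at -0.19 (edgeR adjusted p = 0.0637) and -0.14 (edgeR adjusted p = 0.155). COPB1 and COPE were at -0.07 and -0.20 with overlapping libraries. ARF1, the GTPase that recruits COPI to Golgi membrane, was at 482.2 ± 21.6 CPM in shControl and 451.0 ± 36.5 CPM in shZNF469, also overlapping (log2 fold change -0.10, edgeR adjusted p = 0.469).

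At the Golgi side, GOSR2 (ENSG00000108433, chromosome 17, 46923160 to 46975890, plus strand), a SNARE with which arriving vesicles fuse, was at 62.8, 61.5 and 63.9 CPM in shControl and at 53.6, 52.6 and 49.9 CPM in shZNF469. All knockdown libraries were lower, and GOSR2 fell 1.21-fold (log2 fold change -0.27, SE 0.052, edgeR adjusted p = 0.0204). The tether USO1 did not pass and overlapped (log2 fold change -0.08, SE 0.079, edgeR adjusted p = 0.625).

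CREB3L1 and CREB3L2 are membrane-bound transcription factors that are cut in the Golgi and then switch on genes of collagen and of the secretory route. CREB3L1 was at 290.2, 289.7 and 291.2 CPM in shControl and at 271.0, 239.8 and 268.2 CPM in shZNF469. Every knockdown library was lower, the second the most, but the gene did not pass (log2 fold change -0.16, SE 0.059, edgeR adjusted p = 0.142). CREB3L2 was at 106.7, 99.0 and 95.4 CPM in shControl and at 97.2, 101.9 and 89.2 CPM in shZNF469. Its groups overlapped (log2 fold change -0.06, SE 0.071, edgeR adjusted p = 0.679). Of 7 further genes of this regulation, XBP1 and MBTPS1 fell (28.6%, against 5.34% of all tested genes), none rose and 5 did not pass. Of the 7 values, 4 were negative and 3 positive (median -0.08). XBP1, the factor of the unfolded protein response, went from 83.3 ± 5.43 to 54.9 ± 2.72 CPM (log2 fold change -0.60, SE 0.069, edgeR adjusted p = 0.00302). MBTPS1, the site-1 protease that cuts CREB3L1 and ATF6, went from 186.3 ± 3.20 to 154.1 ± 2.48 CPM (log2 fold change -0.27, SE 0.046, edgeR adjusted p = 0.0125), a call lost in 3 of the 6 fits that each left out 1 library.

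**Figure D2:**
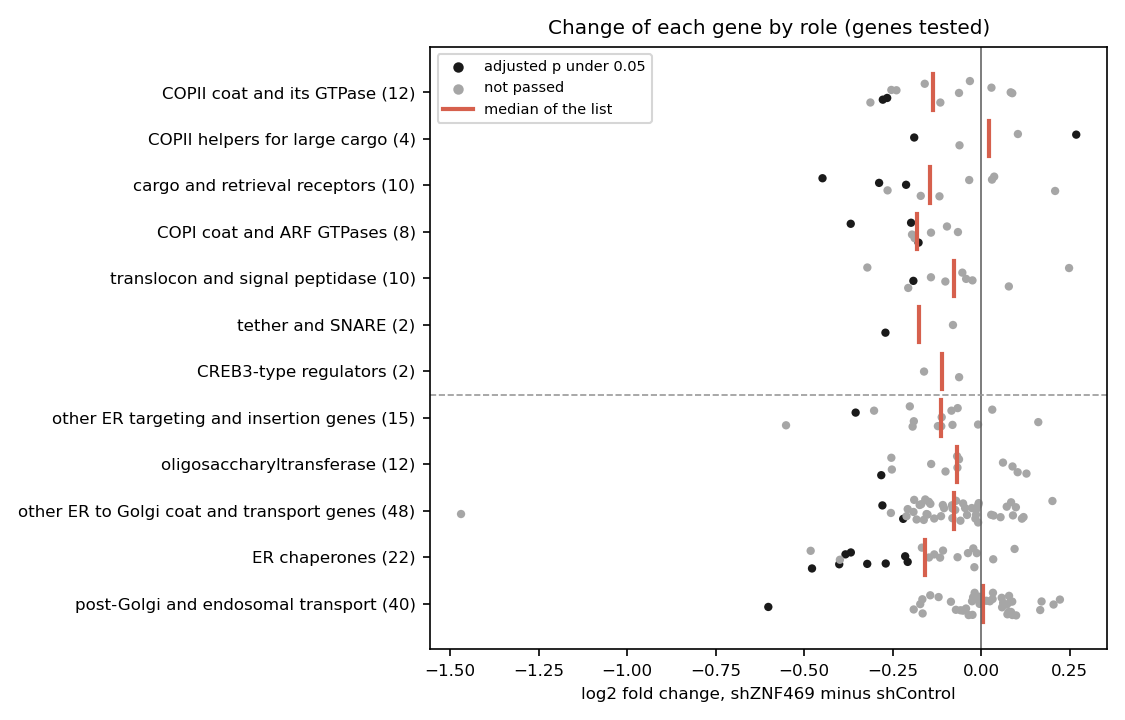
Log2 fold change of each tested gene (shZNF469 minus shControl), by role; the 48 genes are above the dashed line and the other lists below it, with the number of genes in brackets, black points for an adjusted p under 0.05 and a red bar at each median. The medians of the COPI genes (-0.18) and of the ER chaperones (-0.16) lie to the left of that of post-Golgi transport (0.01), and the point at -1.47 is SEC16B, a gene singled out after its values were seen, which did not pass.

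Other genes of the same route gave fewer calls. For comparison, 5.34% of all tested genes fell, and 7.02% of those with a mean of 10 CPM or more. Of 48 further ER to Golgi coat and transport genes, GORASP2, a Golgi stacking protein, and YIPF5 fell (log2 fold changes -0.28 and -0.22, edgeR adjusted p = 0.0450 and 0.0346), none rose, and 38 values were negative (median -0.08). Of 15 other genes of ER targeting and insertion, SRPRB, a subunit of the receptor that brings ribosomes to the ER, fell (log2 fold change -0.35, edgeR adjusted p = 0.0433; median of the list -0.11). Of 12 genes of the oligosaccharyltransferase, which adds sugar chains in the ER, RPN1 fell (log2 fold change -0.28, edgeR adjusted p = 0.0309; median -0.07). The ER chaperones had 8 of 22 tested genes lower and none higher (median -0.16). The 3 with the lowest p were HSPA5 (log2 fold change -0.40, edgeR adjusted p = 0.00381), HSP90B1 (-0.32, edgeR adjusted p = 0.00393) and HERPUD1 (-0.48, edgeR adjusted p = 0.0104). HSPA5 and HSP90B1 end in the signal that the KDEL receptors bind. For post-Golgi and endosomal transport, 1 of 40 genes fell, the exocyst subunit EXOC6 (log2 fold change -0.60, edgeR adjusted p = 0.0141), with 20 values negative and a median of 0.01. Of the 6 fits that each left out 1 library, the calls of SRPRB and GORASP2 were lost in all 6, those of RPN1 and YIPF5 in 5, that of EXOC6 in 3, that of HERPUD1 in 1, and those of HSPA5 and HSP90B1 in none. The share of genes that fell was thus 22.9% among the 48 genes of this report and 4.17% among the 48 further ER to Golgi genes. It was 6.67% for ER targeting and insertion, 8.33% for the oligosaccharyltransferase, 36.4% for the ER chaperones and 2.50% past the Golgi. For the 7 further genes given with CREB3L1 and CREB3L2 it was 28.6%. The 48 genes and the other lists were chosen with earlier results known, and the differences between these lists were not tested.

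Ratios of related genes within a library do not depend on how libraries were scaled. Of 7 ratios of counts, 4 were lower in every shZNF469 library than in any control. ARF4 to ARF1 was 0.854, 0.822 and 0.798 in shControl and 0.664, 0.758 and 0.637 in shZNF469. SEC24D to SEC24C was 1.72, 1.62 and 1.54 against 1.31, 1.41 and 1.43. In both pairs the first gene was lower relative to the second in each knockdown library. SEC24A to SEC24B was 1.06, 1.12 and 1.16 in shControl and 0.811, 0.972 and 0.841 in shZNF469. KDELR3 to KDELR2 was 0.249, 0.248 and 0.240 against 0.214, 0.215 and 0.230, so the scarcer receptor was reduced the more. The changes of these 4 ratios on the log2 scale were -0.27, -0.23, -0.35 and -0.16. With 3 libraries against 3, the exact two-sided permutation test gave each of the 4 its smallest possible p, 0.1, which is 0.175 after adjustment over the 7. The ratios SEC23A to SEC23B (7.89 ± 0.318 against 8.12 ± 0.811), SAR1A to SAR1B (3.29 ± 0.0672 against 3.40 ± 0.133) and CREB3L1 to CREB3L2 (2.90 ± 0.167 against 2.72 ± 0.334) overlapped (exact permutation p = 0.9, 0.2 and 0.6).

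**Figure D3:**
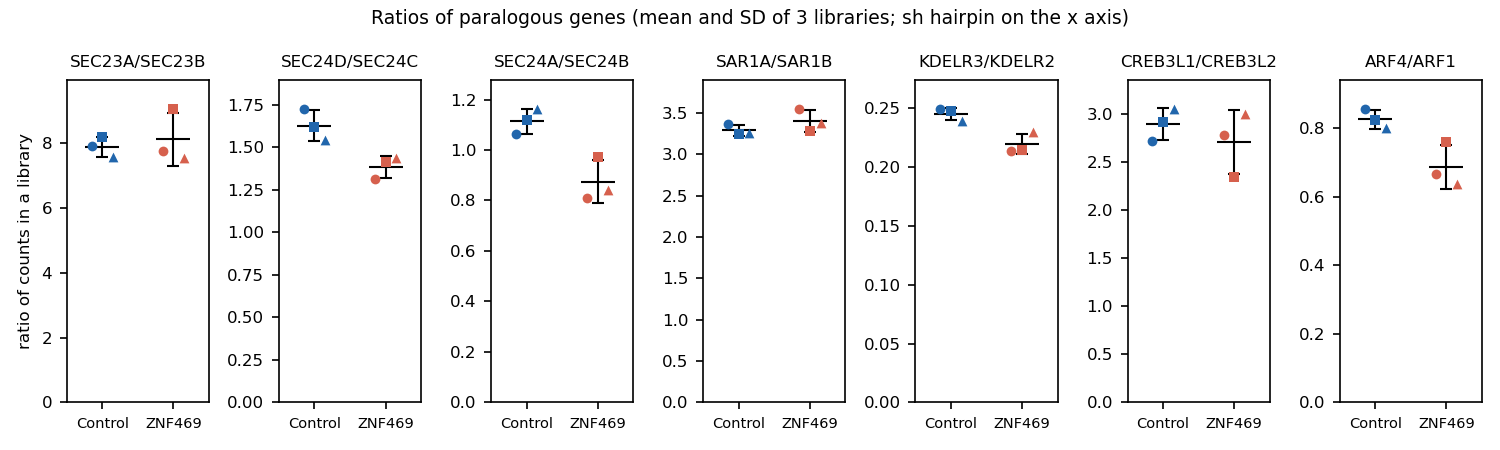
Ratio of the counts of 2 related genes in each library, 1 panel for each ratio with its own linear axis from 0 (blue, shControl; red, shZNF469; circle, square and triangle, replicates 1, 2 and 3), with the mean and SD of 3 libraries in black. The groups are apart for SEC24D to SEC24C, SEC24A to SEC24B, KDELR3 to KDELR2 and ARF4 to ARF1, and overlap in the other 3 panels.

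Libraries of a group differed from each other by transcript length and base composition, and the 48 genes showed it. Their deviation from the group mean correlated with the logarithm of transcript length at Pearson's r of 0.66, 0.40 and -0.81 in shControl replicates 1, 2 and 3, and of 0.00068, 0.74 and -0.83 in shZNF469 replicates 1, 2 and 3. These are correlations across 48 genes of the same libraries and are given as a description. Over 9404 genes the same values ran from -0.47 to 0.40. Short transcripts were thus high in the third library of each group and low in the second of shZNF469: the 12 genes under 2000 bases had a median deviation of 0.17 in shZNF469 replicate 3 and of -0.16 in shZNF469 replicate 2. The median SE was 0.10 for the 12 shorter genes and 0.059 for the other 36. The part of the length trend in this difference was not tested. Of the 12 shorter genes 3 fell (median log2 fold change -0.20), and of the 36 longer ones 8 fell and 1 rose (median -0.11). With a correction for both properties, chosen after the data were seen, 18 of the 48 fell, among them all 11 above, and 9.08% of the genes tested in that fit fell.

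**Figure D4:**
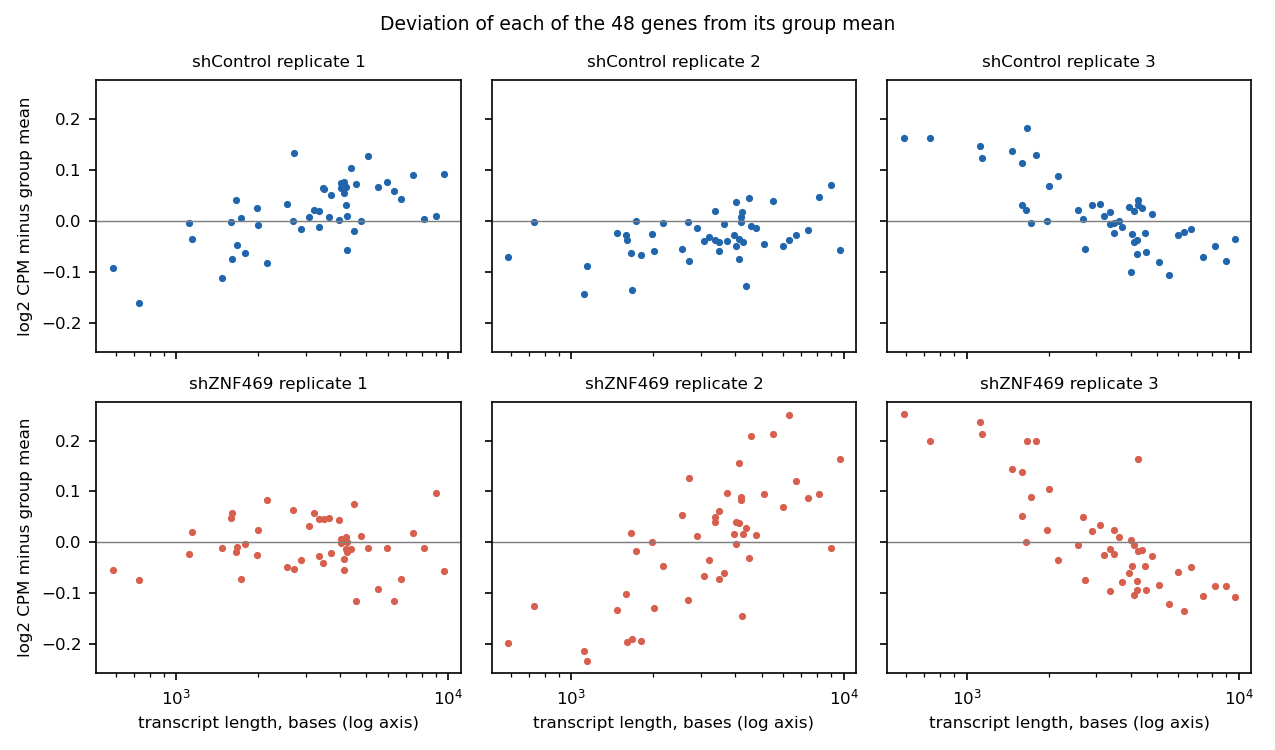
Log2 CPM of each of the 48 genes minus the mean of its group, against transcript length in bases (log axis), 1 panel for each library. The points slope down in replicate 3 of both groups (r of -0.81 and -0.83) and up in shZNF469 replicate 2 (0.74).

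The calls differed in how well they stood up to other fits. KDELR3 and ARF4 passed in all 13 alternatives (log2 fold changes -0.49 to -0.42 and -0.39 to -0.34), and KDELR2 in 12, with an adjusted p of 0.0553 in edgeR without shControl replicate 1. GOSR2 and KLHL12 passed in 8 of the 13. SEC23B, SEC24D, SURF4 and SEC61A1 passed in 6, and COPA and COPB2 in 5. Leaving out 1 library left 2, 3 or 4 of the 48 genes lower without shControl replicate 1, 2 or 3, 3 or 4 without shZNF469 replicate 1 or 3, and 10 without shZNF469 replicate 2, of which 7 were among the 11. Calls fell over all genes too: 1.97%, 2.38% and 2.39% of the genes tested were lower without shControl replicates 1, 2 and 3, and 2.32%, 5.14% and 3.71% without shZNF469 replicates 1, 2 and 3. KLHL12 no longer passed without any 1 of the controls or without shZNF469 replicate 1. The median of the 48 stayed between -0.17 and -0.087 over these alternatives, with 36 to 39 negative values.

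**Figure D5:**
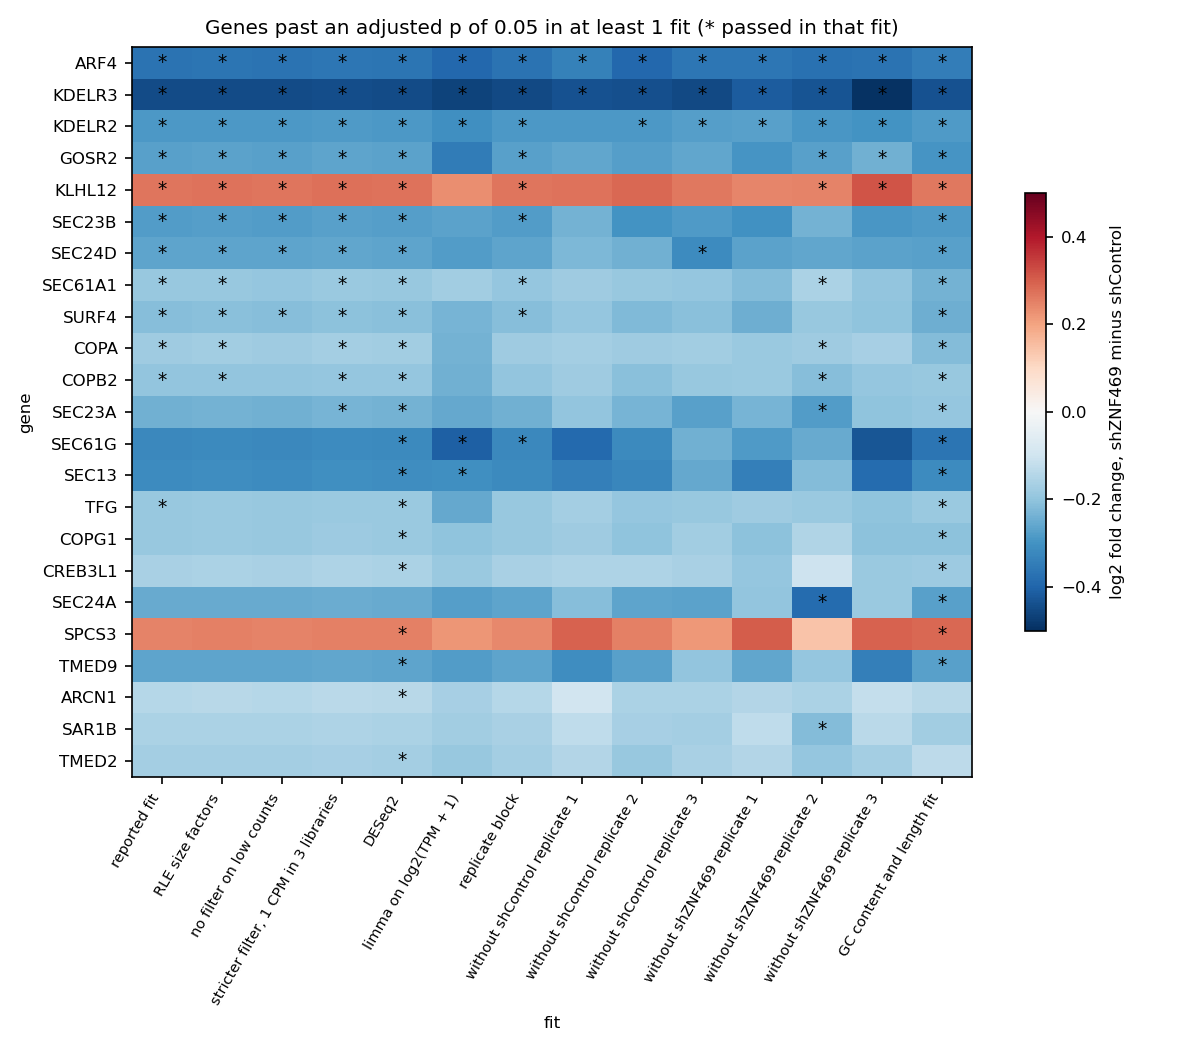
Log2 fold change (colour; blue lower, red higher in shZNF469) of each gene that passed in at least 1 fit, with an asterisk where its adjusted p was under 0.05; columns are the reported fit and the 13 alternatives. KDELR3 and ARF4 have an asterisk in every column, and the asterisks of most other genes are absent where a library was left out.

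Some counts can hold reads of another gene, since the sources used here do not say whether counting used strand. By GENCODE 29, exons of 5 of the 12 genes that passed overlap a gene on the other strand: KDELR3 with DDX17 (log2 fold change 0.16, edgeR adjusted p = 0.324), COPA with NCSTN (0.25, edgeR adjusted p = 0.0233), COPB2 with MRPS22 (0.11, edgeR adjusted p = 0.523), SEC61A1 with RUVBL1 (-0.25, edgeR adjusted p = 0.0843) and ARF4 with ARF4-AS1, which was not tested. NCSTN thus rose while COPA fell. KDELR2 overlaps DAGLB (0.03, edgeR adjusted p = 0.886) and GOSR2 overlaps AC005670.2, in both cases on the same strand. ARF4 also has 4 pseudogenes named after it, among which reads could be split, and its value is uncertain to that extent.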

How the data were processed

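The authors deposited, for each gene and library, a whole-number read count and a TPM, a transcript abundance scaled by length. The submitters' processing notes name HISAT2, StringTie and GRCh38.p14. Tool versions, gene annotation, strandedness of counting and filtering by the authors were not given in the sources used here. Per the labels' protocols, total RNA went into NEBNext Ultra RNA libraries.

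Counts were analysed with edgeR 4.0.16 in R 4.3.3: filterByExpr with a minimum count of 10, TMM scaling, the two-sided quasi-likelihood test without covariates, and Benjamini-Hochberg adjustment over the 16353 genes tested, with a threshold of 0.05. The script was tested on simulated data. CPM are TMM-scaled, and each mean ± SD is over 3 libraries. DESeq2 1.42.0, limma 3.58.1 on log2(TPM + 1), other filters and scaling, a replicate block and leaving out each library were alternatives. Transcript lengths, base composition and exon overlaps came from GENCODE 29, which matched 89.5% of the listed genes; gene positions and promoters came from RefSeq on GRCh38.p14, and a gene held a motif if any of its windows did.

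The 48 genes and all other lists were chosen with earlier results of these data known. Values in every library are given for genes that passed and for CREB3L1 and CREB3L2; other lists give up to 3 passing genes in each direction with the lowest p. The marker lists covered fibroblasts, keratinocytes, endothelium, melanocytes, immune cells, and smooth muscle and pericytes.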

Additional observations from a re-analysis of the deposited data

How the results depend on the processing

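Against 11 lower and 1 higher of the 48 genes in the reported fit, DESeq2 gave 19 lower and 2 higher, no filter on low counts 7 lower, and limma on log2(TPM + 1) 5 lower and 0 higher. The fit corrected for GC content and length, chosen after seeing the data, gave 18 lower and 2 higher. For COPII coat and helper genes (3 lower and 1 higher as reported), DESeq2 gave 5 lower, the GC and length fit 6 lower, and limma 1 lower and 0 higher. For COPI and ARF genes (3 lower), DESeq2 gave 5 lower, and no filter and limma 1 lower each. For translocon and signal peptidase genes (1 lower, 0 higher), DESeq2 and the GC and length fit each gave 2 lower and 1 higher, and no filter 0 lower. Without a single library, the lower genes were 2 to 10 of the 48, 0 to 3 for COPII, 1 to 3 for COPI and 0 to 1 for the translocon, and the higher genes 0 to 1 of the 48 and of COPII. The replicate block gave 8 lower, 7 of them among the 11, with 1 lower for COPII, 1 for COPI and 2 for the translocon. Deviations of same-numbered libraries correlated at -0.023, 0.076 and 0.033 for numbers 1, 2 and 3. Of the 3 numbers, 2 matched their own partner best. Whether the numbers pair the libraries cannot be told from these values. Genes that fell were 874 of 16353 tested (5.34%) as reported, 1648 of 21078 with DESeq2 (7.82%), 771 of 21151 with no filter (3.65%), 526 of 16353 with limma (3.22%), 736 of 16353 with the replicate block (4.50%) and 1397 of 15386 in the GC and length fit (9.08%). They were 333, 397 and 405 without shControl replicates 1, 2 and 3, and 388, 854 and 625 without shZNF469 replicates 1, 2 and 3. The 21078 genes of the DESeq2 fit are those with a p-value. Any that DESeq2 left without an adjusted p were counted as not passed, so its 7.82% is not strictly like the other shares. Genes that rose, 745 as reported, were 1646 with DESeq2, 233 with limma, 215, 332 and 267 without each control, and 204, 769 and 496 without each shZNF469 library. Log2 fold changes that changed sign, none of them of a gene that passed as reported, were SSR1 with limma (0.045), SEC16A in the GC and length fit (-0.11), and the log2 fold change of SSR3 in that fit (0.0071). Without a single library, values spanned 0 for MIA2 (-0.12 to 0.00028), SSR3 (-0.070 to 0.013), SEC16A (-0.023 to 0.072), LMAN1 (-0.079 to 0.091), SSR4 (-0.16 to 0.043), SPCS1 (-0.13 to 0.033), MCFD2 (-0.071 to 0.011) and SSR2 (-0.049 to 0.19). The log2 ratio of SAR1A to SAR1B was -0.074 in TPM against 0.047 in counts. Without a single library the log2 ratios ran from -0.27 to -0.19 (SEC24D to SEC24C), -0.43 to -0.30 (SEC24A to SEC24B), -0.19 to -0.14 (KDELR3 to KDELR2), -0.34 to -0.22 (ARF4 to ARF1), -0.04 to 0.09 (SEC23A to SEC23B), 0.02 to 0.07 (SAR1A to SAR1B) and -0.18 to -9.16e-05 (CREB3L1 to CREB3L2). The causes of these differences were not tested. With a median SE of 0.062, the smallest log2 fold change that passed among the 48 genes was -0.18 (COPA).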
